A study of Mus musculus with 6 samples.

Results

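Among 52390 cells in 6 libraries of mouse melanoma tumours, 1663 were myeloid cells carrying Arg1 or Mmp12 transcripts, here called Arg1 and Mmp12 macrophages. They were chosen by their own transcript counts. A cell entered a myeloid gate when it held at least 2 UMIs (unique molecular identifiers, counted transcripts) of Tyrobp plus Fcer1g, at least 1 of Lyz2 and 0 of Cd3d, Cd3e and Cd3g. Of the 8687 cells in that gate, the members held at least 2 UMIs of Arg1 plus Mmp12. The 6322 gated cells with 0 UMIs of both genes formed the comparator, and the 702 cells with a sum of 1 entered neither group.

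Each tumour arose after 600000 cells of YUMMER1.7, a melanoma line of mouse origin, were placed under the skin of male C57Bl/6 mice aged 6 to 8 weeks. Sedentary replicates 1, 2 and 3 were sedentary, and exercise replicates 5, 6 and 8 ran on a treadmill at 12 m per min for 45 min per day over 14 days. Each group held 3 libraries, and the labels do not say whether a library pooled animals or name a batch. P-values over libraries therefore measure the spread between these 6 libraries. The tumours came from 1 injected line, so the model represents that line only.

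Arginase 1, the product of Arg1, splits arginine into ornithine and urea, and macrophages that express it are known for depleting arginine that T cells need. Mmp12 encodes macrophage elastase, a secreted metalloprotease that cleaves elastin, and Mmp13 encodes a collagenase. Hmox1 encodes haem oxygenase 1, which breaks down haem to biliverdin, carbon monoxide and iron.

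Mmp12 lies on chromosome 9 (mm10, 7344381 to 7369499, plus strand) and Mmp13 lies upstream on the same strand of chromosome 9 (7272514 to 7283331). Arg1 lies on chromosome 10 (24915221 to 24927484, minus strand) and Hmox1 on chromosome 8 (75093621 to 75100589, plus strand). All 4 are annotated as protein coding. The promoters of both proteases are shown because Mmp13 stood higher in members than in the comparator in every library, and those of Bnip3 and Pgk1 because genes induced by hypoxia moved together (below). Each line gives the 150 bases before a RefSeq transcription start, on the gene's strand in GRCm38.p6. Capitals mark TGANTCA, the AP-1 word, in the proteases, and ACGTG or its reverse complement, the core of the HIF element, in Bnip3 and Pgk1.
Mmp12 (second start, chr9:7347224-7347373, plus strand): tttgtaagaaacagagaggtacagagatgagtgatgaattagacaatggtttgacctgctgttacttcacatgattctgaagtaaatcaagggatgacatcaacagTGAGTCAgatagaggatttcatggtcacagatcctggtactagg
Mmp13 (chr9:7272364-7272513, plus strand): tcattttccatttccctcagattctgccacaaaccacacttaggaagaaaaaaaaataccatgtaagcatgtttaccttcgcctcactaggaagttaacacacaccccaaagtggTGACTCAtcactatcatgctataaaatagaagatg
Bnip3 (chr7:138909507-138909656, minus strand): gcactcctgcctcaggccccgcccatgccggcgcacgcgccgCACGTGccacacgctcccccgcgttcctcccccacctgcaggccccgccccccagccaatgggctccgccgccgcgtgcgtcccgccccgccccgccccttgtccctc
Pgk1 (chrX:106186950-106187099, plus strand): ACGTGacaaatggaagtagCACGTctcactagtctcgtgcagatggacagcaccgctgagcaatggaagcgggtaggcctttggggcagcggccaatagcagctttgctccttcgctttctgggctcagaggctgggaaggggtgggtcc
The AP-1 word began 44 bases before the second start of Mmp12 and 35 before the start of Mmp13. It also stood 46 bases before Mmp3 and 63 before Mmp10, neighbouring proteases of chromosome 9, and was not in the 250 bases before the first start of Mmp12. Of 32851 promoter windows of 250 bases, 6.75% held the word on either strand. The HIF core stood in the windows of 15 of 22 genes of the hypoxia list (68.2%), against 18.5% of 27025 genes. The word holds a CG pair, and base composition was not matched. The list was also put together from HIF and glycolysis genes, so this share describes the list and not these cells. In Bnip3 the run CACGTG is its own reverse complement and counts on both strands.

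Macrophage markers were present in the members and in the comparator, so they did not set the members apart. None of 15 macrophage markers was at 0 in either. This and the values that follow are from a strict gate, defined at the end of this paragraph. In members the summed level of the 15 was 10816 to 14280 CPM (UMIs of a gene per 1000000 UMIs of the summed cells) over the 6 libraries. In the comparator it was 6151 to 15111 CPM. Csf1r, the receptor for the growth factor CSF1, stood at 269 to 376 CPM in members and 351 to 464 in the comparator. Fcgr1, a high-affinity antibody receptor, stood at 226 to 338 CPM in members and 286 to 461 in the comparator. Markers of neutrophils were low but present, with 10 genes that summed to 189 to 647 CPM in members, of which Il1r2, also made by macrophages, gave 103 to 352 CPM. All strict-gate members together held 244 UMIs of the neutrophil gene Csf3r (15.8 to 25.4 CPM) and 3 of Ly6g, a gene that gave only 13 UMIs in the comparator as well. They held 14 UMIs of the T cell gene Trac. The 11 dendritic markers summed to 272 to 388 CPM in members and 255 to 376 in the comparator. The 12 tumour-like markers summed to 226 to 654 and 288 to 636 CPM. Without the limit of the strict gate they summed to 526 to 1315 CPM in members and 1027 to 1410 in the comparator. Since deep cells of other types could pass the gate through a few stray UMIs, results on genes use a strict gate in which Tyrobp, Fcer1g and Lyz2 made up at least 0.3% of a cell's UMIs. It kept 1553 members (93.4%) and 5778 comparator cells.

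Arg1 and Mmp12 were little seen outside the myeloid cells. Among cells with neither Tyrobp nor Fcer1g, 0.216 to 0.611% held an Arg1 UMI and 0.603 to 3.18% held an Mmp12 UMI, at median depths of 12147 to 15513 UMIs against 5462.5 to 7360 in the members. Hmox1 was not restricted in this way. An Hmox1 UMI was found in 15.1 to 27.4% of those cells, in 14.5 to 30.1% of comparator cells and in 28.3 to 60.2% of members. Libraries held 17 to 30 cell barcodes in common per pair. Scrublet marked 0.946 to 2.42% of cells as doublets, among them 2 to 9 strict-gate members per library.

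Cells with Mmp12 UMIs and none of Arg1 were the most numerous kind of member in each library. In the strict gate 925 members (59.6%, and 44.6 to 75.2% by library) were Mmp12-side, with at least 2 Mmp12 UMIs and 0 of Arg1. Another 254 (16.4%) were Arg1-side, with at least 2 Arg1 UMIs and 0 of Mmp12, and 374 (24.1%) held both. At these depths 0 UMIs of a gene does not show that a cell lacks its transcript. Arg1 was seen more often in cells with Mmp12 than in cells without it. With each cell thinned to 2000 UMIs, Arg1 was seen in 10.9 to 24.1% of strict-gate cells with Mmp12 and in 2.90 to 11.4% of those without, and the first share was the higher in every library.

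Mmp13 and Hmox1 followed the number of Arg1 and Mmp12 UMIs. In strict-gate cells with 0 such UMIs, Mmp13 stood at 90.2 ± 33.4 CPM (SD, n = 6 libraries). It was 174 ± 76.8 CPM just outside the threshold, in 639 cells with 1 UMI, and 179 ± 111 CPM just inside it, in 351 cells with 2 UMIs. In the 430 cells with 10 or more it reached 757 ± 472 CPM. Hmox1 went from 125 ± 54.4 CPM with 0 UMIs to 147 ± 61.5 with 1, 138 ± 83.0 with 2 and 513 ± 205 with 10 or more. The threshold thus cut through a gradient, and the cells on either side of it had similar levels of both genes. These values describe how the members were chosen and were not tested.

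The share of members overlapped between the groups. They were 1.75, 5.96 and 1.90% of kept cells in sedentary replicates 1, 2 and 3, and 5.43, 2.76 and 2.06% in exercise replicates 5, 6 and 8. Of the myeloid gate, they were 13.6, 23.4 and 15.9% in the sedentary libraries and 22.8, 21.9 and 13.4% in the exercise libraries. The groups overlapped, at 17.7 ± 5.13% and 19.3 ± 5.16% (SD, n = 3 each; exact two-sided permutation test, p = 1, where 3 against 3 cannot go below 0.1). The Arg1-side share of members was 5.04, 11.4 and 14.9% in the sedentary libraries and 27.0, 11.8 and 17.3% in the exercise libraries. These overlapped too (10.5 ± 5.01% against 18.7 ± 7.70%, SD, n = 3 each; exact permutation p = 0.2, 0.5 adjusted over 5 shares).

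**Figure D1:**
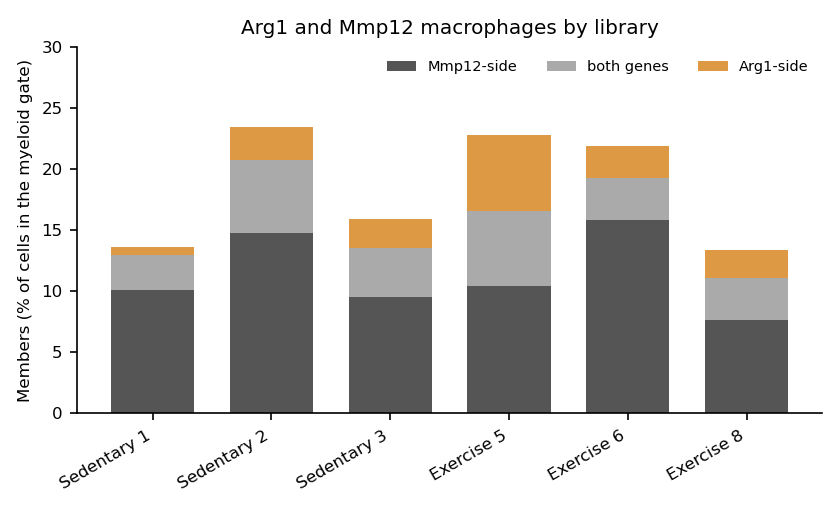
Members as a percentage of all cells in the myeloid gate (y axis) in each library (x axis), split into Mmp12-side, both genes and Arg1-side cells. The 6 bars run from 13.4% in exercise replicate 8 to 23.4% in sedentary replicate 2, and the Mmp12-side part is the largest in each.

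Against the comparator, members had higher transcripts of most hypoxia and glycolysis genes (21 of 24) and of many lipid-handling genes (11 of 18). They had lower transcripts of most interferon gamma-induced genes (13 of 15) and monocyte genes (10 of 15). Counts were summed per library and cell state and tested with edgeR's quasi-likelihood test with library as a block. Of 10081 genes tested in the strict gate, 1092 (10.8%) passed an adjusted p of 0.05, 569 of them higher (5.64%) and 523 lower (5.19%). The 8 genes of the gate were left out. In the gate without the 0.3% limit 2042 of 10867 genes (18.8%) passed, 9.59% higher and 9.2% lower, and 731 of the 1092 genes passed there in the same direction.

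The comparator was a mixture, and its makeup moved with these results. Its 8 monocyte markers summed to 1860 to 5788 CPM against 608 to 1149 in the members. Its 10 neutrophil markers summed to 226 to 3697 CPM against 189 to 647, and none of either list was at 0 in the members. Median depth was 2771 to 3765 UMIs in the comparator against 5462.5 to 7360 in the members. This comparison was therefore also computed with every cell thinned to 2000 UMIs before gating, and, in an alternative chosen after seeing the data, within cells that held C1q transcripts and fewer than 2 UMIs of each set of neutrophil and monocyte genes (1019 members, 2526 comparator cells). The comparison of exercise with sedentary members was run both ways too, and the other comparisons were not. Within C1q cells the gap in depth varied by library, with medians of 1333 to 4952 UMIs in the comparator against 5725 to 7955 in the members. It was wider than in the strict gate in sedentary replicates 1 (1333 against 7955) and 2 (1415 against 7439.5) and exercise replicate 8 (2188.5 against 5725). It was narrower in exercise replicates 5 (4952 against 6679) and 6 (3407 against 6092), where the strict gate had 3385 against 6311 and 3183 against 6025. In sedentary replicate 3 it was similar. The C1q-cell fit called 1080 of 8802 genes, 737 higher (8.37%) and 343 lower (3.9%), and the thinned fit called 765 of 6615, 6.44% higher and 5.12% lower. Of the calls within C1q cells, 447 were called in the same direction among the 1092 (41.4% of the former and 40.9% of the latter).

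Atp6v0d2, a subunit of the proton pump that acidifies lysosomes, had the largest increase of the named genes. In sedentary replicates 1, 2 and 3 and exercise replicates 5, 6 and 8 it stood at 38.0, 66.0, 33.4, 47.8, 34.6 and 44.1 CPM in members and at 3.6, 2.7, 3.5, 5.2, 7.6 and 3.5 CPM in comparator cells. Every member value lay above every comparator value, with a log2 fold change of 3.42 (SE 0.22, edgeR adjusted p = 2.33e-07). Gpnmb, a lysosomal membrane glycoprotein, was higher by 2.34 on the log2 scale (SE 0.14, edgeR adjusted p = 1.38e-07), at 30.4 to 182 CPM in members and 11.4 to 27.5 in comparator cells.

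Transcripts of an arginine importer and of the enzyme that competes with arginase rose. Nos2, the inducible nitric oxide synthase that uses the same substrate, stood at 41.0, 70.4, 64.0, 111, 18.2 and 59.3 CPM in members and at 1.7, 24.3, 2.4, 14.0, 3.8 and 8.9 CPM in comparator cells. It was higher in each library, although the ranges overlapped, with a log2 fold change of 2.74 (SE 0.29, edgeR adjusted p = 2.74e-05). Slc7a2, a cationic amino acid transporter that carries arginine, was higher by 2.27 (SE 0.23, edgeR adjusted p = 2.71e-05). Of 14 tested genes of arginine use, Arg1 not among them, 3 rose and 1 fell, with a median log2 fold change of 0.06 beside 0.006 for all genes. Odc1 (log2 0.49), the ornithine decarboxylase that starts polyamine synthesis, was the other that rose, and its call was lost within C1q cells (0.15, adjusted p = 0.498). Sat1, which acetylates polyamines, fell by 0.31 on the log2 scale, and that call was also lost there (adjusted p = 0.724).

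Mmp13 and Hmox1 had been listed as markers of these cells with the data known, so their levels are a description. Mmp13 stood at 574, 800, 396, 177, 157 and 335 CPM in members and at 109, 75, 133, 37.4, 80.2 and 106 CPM in comparator cells, in the same library order. Hmox1 stood at 293, 381, 358, 264, 76.0 and 267 CPM in members and at 99.5, 213, 159, 107, 55.0 and 118 CPM in comparator cells. Both were higher in members in 6 of 6 libraries, by 2.11 (SE 0.22) and 1.15 (SE 0.11) on the log2 scale. Among 19 tested matrix proteases and inhibitors 7 rose, Mmp13 among them, and 0 fell (median 0.41). Adam8, a membrane protease, rose by 1.31, Plau, the urokinase plasminogen activator, by 0.96, and Ctsd, a lysosomal protease, by 0.83. Of 18 haem, iron and oxidant-response genes 7 rose, Hmox1 among them, and 1 fell (median 0.30). Slc7a11, the cystine importer, rose by 0.76 and Fth1, the ferritin heavy chain that stores iron, by 0.69. Gsr, glutathione reductase, fell by 1.16 on the log2 scale but was higher in members within C1q cells (0.87, edgeR adjusted p = 0.000458).

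Most genes of hypoxia and glycolysis rose. Of 24 tested, 21 rose and 0 fell, with a median log2 fold change of 0.59. Ndrg1, a hypoxia-induced stress gene, stood at 149, 191, 201, 176, 62.6 and 177 CPM in members and at 25.5, 99.5, 68.8, 64.0, 37.0 and 52.7 CPM in comparator cells. It was higher in every library (log2 1.51, SE 0.16, edgeR adjusted p = 4.5e-05), and exercise replicate 6 was low in both states. Bnip3, a mitophagy receptor whose promoter is printed above, rose by 1.10, Vegfa, the endothelial growth factor, by 1.08, and Ero1l, an oxidase of protein folding, by 0.75. Within C1q cells 23 of 23 rose (median 1.01), after thinning 21 of 23 (median 0.77), and leaving out a library 18 to 24 of 24. With no replicate block, so that libraries were not paired, 2 of 24 passed, at a like median of 0.57.

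Lipid-handling genes rose in part. Of 18 genes of the lipid-associated macrophage list 11 rose and 0 fell (median 0.52). Fabp5, a fatty acid carrier, stood at 1143 to 3020 CPM in members and 757 to 1148 in comparator cells, and rose by 1.13. Abca1, a cholesterol exporter, rose by 1.04. Lpl, lipoprotein lipase, rose by 0.90, but that call was lost within C1q cells (0.28, adjusted p = 0.262). Of 13 alternative activation genes 5 rose and 1 fell (median 0.50): Mgl2, a lectin, rose by 1.36 and Pdcd1lg2, which encodes the PD-1 ligand PD-L2, by 1.20, while Chil3, a chitinase-like protein also made by monocytes, fell by 2.84 on the log2 scale. Socs2 rose by 0.99 and lost that call within C1q cells (0.48, adjusted p = 0.183). Mgl2 also differed between kinds of member (below).

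Other genes with large increases were F7, coagulation factor VII (log2 2.59), Il7r, the interleukin 7 receptor chain (2.40), Tnfrsf9, the costimulatory receptor 4-1BB (2.30), Prelid2 (1.78), Fam46c (1.67), the glycolytic Aldoc (1.62), the transcriptional repressor Id2 (1.42) and the signalling regulator Rgs1 (1.40). Each was higher in 6 of 6 libraries, and each passed within C1q cells and after thinning. Heat shock genes rose in 5 of 11 (median 0.24). Hspa1a (1.04) and Hspa1b (1.16) are near-identical copies between which reads can be split, so their separate values are uncertain.

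**Figure D2:**
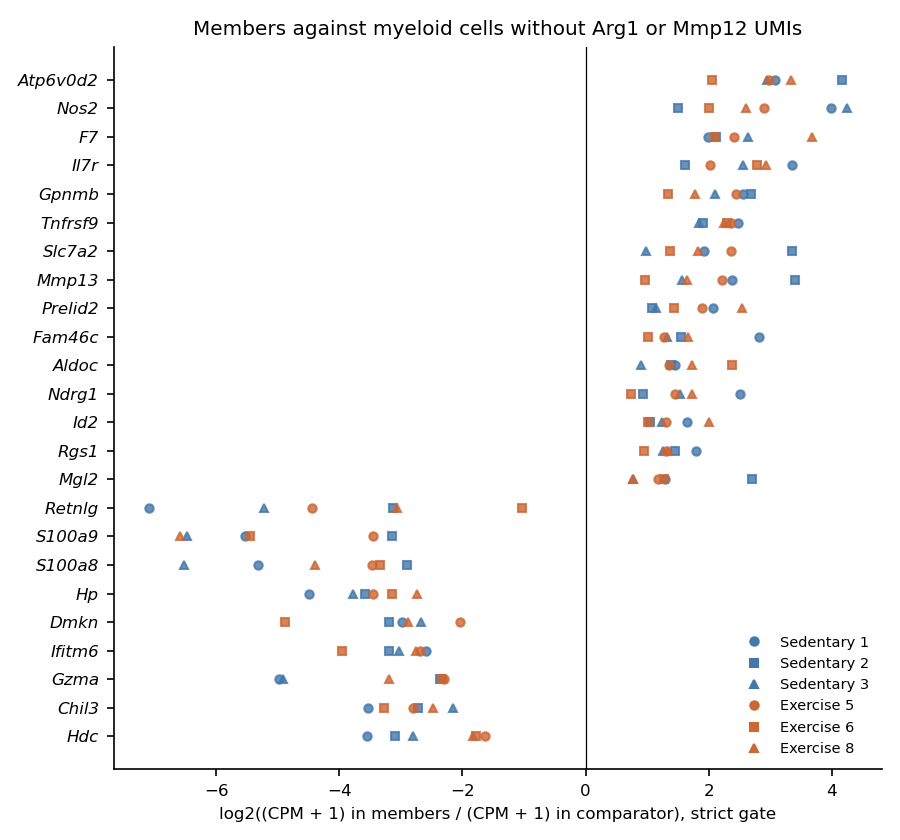
Log2 ratio of members to comparator in CPM after adding 1 (x axis) for the 15 genes with the largest increases and 9 of the 10 with the largest decreases (y axis), with 1 point per library. All points of the upper 15 genes lie right of 0 and all points of the lower 9 lie left of it.

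The genes with the largest decreases were mostly those of neutrophils and monocytes. S100a8, which encodes a calcium-binding protein abundant in neutrophils, stood at 41, 117, 2.8, 31.4, 4.9 and 4.0 CPM in members and at 1675, 879, 345, 357, 58.5 and 104 CPM in comparator cells. It was lower in members in 6 of 6 libraries, although the ranges overlapped, with a log2 fold change of -3.95 (SE 0.29, edgeR adjusted p = 1.61e-06). Retnlg (-4.74), S100a9 (-4.21), Hp (-3.76), Dmkn (-3.22), Ifitm6 (-3.08), Gzma (-2.88) and Hdc (-2.70) were also lower. Of these and Chil3, only Gzma was among the genes tested within C1q cells, where it missed the threshold (-1.19, adjusted p = 0.0724). Of 15 monocyte genes 10 fell and 0 rose (median -0.62), while within C1q cells, chosen partly by Ly6c2 and Plac8 of that list, 9 of 11 rose and 1 fell. S100a8, S100a9 and Chil3 were also among the genes used to choose the C1q cells, so that fit cannot test their decreases. The part of the comparator's monocytes and neutrophils in these decreases was not tested.

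Interferon gamma-induced genes were lower. Of 15 tested, 13 fell and 1 rose (median -0.44). Gbp5, a guanylate-binding protein of host defence, stood at 92.0, 92.3, 47.3, 85.9, 81.4 and 52.1 CPM in members and at 126, 254, 104, 157, 194 and 107 CPM in comparator cells, and fell by 1.01 on the log2 scale (SE 0.11, edgeR adjusted p = 6.04e-05). Cxcl10, a T cell attractant, fell by 0.92 on the log2 scale. Cd274, which encodes PD-L1, was the one that rose (0.55), a call lost without any one of sedentary replicates 1 and 3 and exercise replicates 5 and 8. Within C1q cells 8 of 15 fell and 2 rose (median -0.27), with Gbp5 and Cxcl10 among those that fell, Gbp2 no longer past the threshold (adjusted p = 0.0803) and Ly6i turned from -0.90 to 0.83.

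The remaining lists were mixed. MHC class II genes, which present antigen to CD4 T cells, rose in 5 of 11 (median 0.28), led by the peptide exchange subunit H2-DMb2 (1.01). Higher levels were not shared by all kinds of member. The 11 genes summed to a median of 32463 CPM in Mmp12-side cells, 14511 in Arg1-side cells and 19394 in cells with both. The comparator median was 24999 CPM, with ranges over the 6 libraries that overlapped, and these sums were not tested. H2-Ab1 (0.28), H2-Aa (0.32) and H2-Eb1 (0.35) lost their calls within C1q cells, where 1 of 9 rose. Among 15 resident-type macrophage genes 3 rose and 1 fell (median -0.07): Cx3cr1, the fractalkine receptor, fell by 1.37 on the log2 scale, and Pf4 (1.08) and F13a1 (0.89) rose. Within C1q cells 11 of 15 fell and 2 rose. Inflammatory cytokine genes rose in 2 of 17 and fell in 3 (within C1q cells 9 of 14 rose and 2 fell), immediate early genes rose in 4 of 16 and fell in 3 (10 and 1 of 15), and T cell restraint genes rose in 3 of 13 and fell in 3 (4 and 0 of 12). Cell division genes rose in 3 of 16 and fell in 0 (0 and 0 of 13 after thinning), while within C1q cells 0 rose and 3 of 16 fell (median -0.24). With no replicate block 4 of 15 interferon gamma-induced genes and 6 of 15 monocyte genes fell, and 6 of 18 lipid-handling genes, 3 of 19 matrix proteases, 3 of 18 haem and iron genes and 1 of 11 MHC class II genes rose.

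The share of dividing cells was compared at equal depth. Among cells with at least 2000 UMIs, thinned to that number, 21.5 ± 3.33% of members and 19.4 ± 2.81% of comparator cells held a UMI of Mki67 or Top2a (SD, n = 6 libraries). The difference did not pass the exact two-sided sign-flip permutation test (p = 0.09375, where 6 pairs allow 0.031, and 0.469 adjusted over 5 shares). Cells with fewer UMIs were left out, unequally: 106 members (2.60 to 11.6% by library) and 1653 comparator cells (18.7 to 45.3%). Without thinning, over all cells, the shares were 37.5 and 29.7%.

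**Figure D3:**
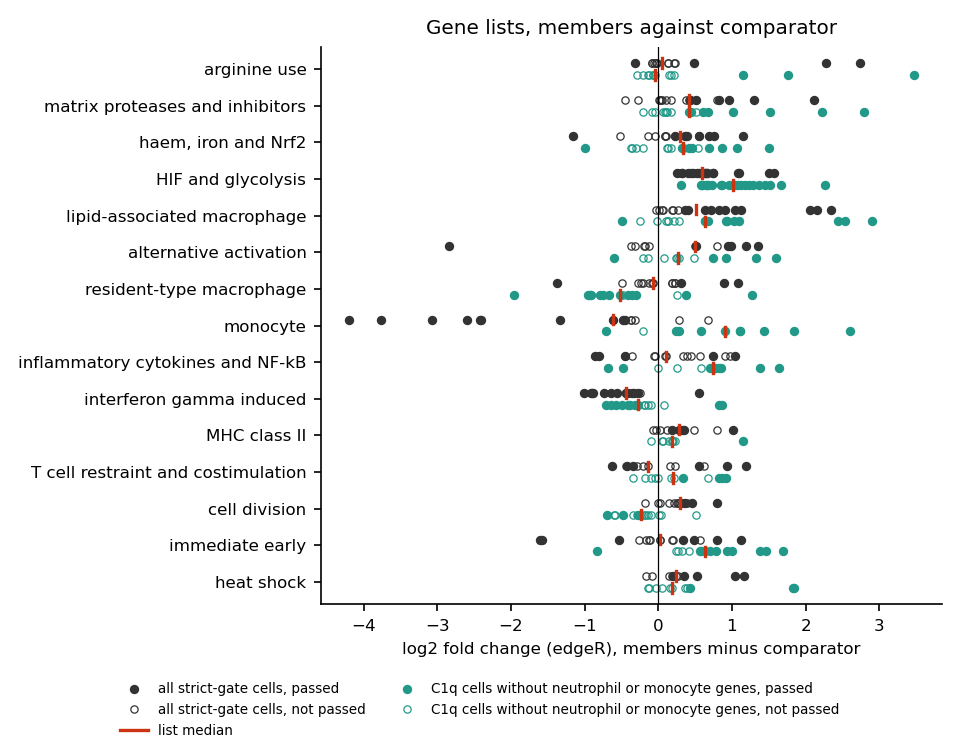
Log2 fold change of members against comparator (x axis) for each tested gene of 15 lists (y axis), in all strict-gate cells (dark) and in C1q cells (green), with filled points past the adjusted threshold and red bars at list medians. The hypoxia list lies right of 0 in both fits, at medians of 0.59 and 1.01, while the monocyte list changes side, from -0.62 to 0.91.

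The members differed among themselves by which of the 2 genes was detected. Arg1-side cells had higher transcripts of resident-type macrophage genes, and Mmp12-side cells had higher transcripts of MHC class II genes. The comparison used 5 libraries, since sedentary replicate 1 held 7 Arg1-side cells. Of 6493 genes tested with edgeR, 357 (5.5%) passed, 191 higher in Arg1-side cells (2.94%) and 166 lower (2.56%). The count fell to 137 without exercise replicate 6, 165 without exercise replicate 8 and 176 without sedentary replicate 2.

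F13a1, the A chain of coagulation factor XIII, separated the sides furthest upward. In sedentary replicates 2 and 3 and exercise replicates 5, 6 and 8 it stood at 382, 667, 439, 403 and 521 CPM in Arg1-side cells and at 80.9, 86.1, 55.8, 25.3 and 37.8 CPM in Mmp12-side cells. The ranges did not overlap, with a log2 fold change of 3.04 (SE 0.22, edgeR adjusted p = 1.18e-05). Of 15 resident-type genes 11 were higher in Arg1-side cells and 0 lower, with a median of 1.67 beside 0.01 for all genes. Folr2, a folate receptor of resident macrophages (2.62), and Ccl8, a monocyte attractant (1.88), were among them. The complement genes C1qa (0.01), C1qb (-0.05) and C1qc (0.09) of that list, named after their values were seen, did not pass. Other genes higher in Arg1-side cells were Chil3 (2.32), the matrix protein gene Thbs1 (2.25), Fcrls (2.20), Abcc3 (2.17) and Cela1 (1.93). E330013P04Rik (2.12), lower in exercise replicate 5, and Mxra8 (1.78) lost their calls without exercise replicate 6 or without sedentary replicate 2.

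MHC class II moved the other way. H2-DMb2 stood at 11.1, 10.4, 29.3, 16.6 and 8.5 CPM in Arg1-side cells and at 43.8, 48.0, 107, 92.0 and 80.2 CPM in Mmp12-side cells. Every Arg1-side value lay below every Mmp12-side value (log2 -2.20, SE 0.24, edgeR adjusted p = 0.000202). Of 9 MHC class II genes tested, 8 were lower in Arg1-side cells (median -1.42), and the lysosomal protease gene Ctss (-0.24) was the one that did not pass. Il1r2, the decoy receptor for interleukin 1, stood at 124.6, 67.8, 29.3, 29.1 and 21.4 CPM against 494, 344, 157, 196 and 383 CPM and was lower by a log2 difference of -2.58. Dpp4 (-3.99), Cbfa2t3 (-3.40), Adgrg5 (-2.85), Klrb1b (-2.57), Rnase6 (-2.32), Traf3ip3 (-2.18) and Klrk1 (-2.02) were also lower. Kmo (-2.10) lost its call without exercise replicate 6 or 8. Of 12 alternative activation genes 5 were higher and 2 lower in Arg1-side cells (median 0.26). Mgl2 was among the lower, by a log2 difference of -1.96 (edgeR adjusted p = 0.00026).

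Hmox1 was higher on the Arg1 side. It stood at 310, 584, 206, 158 and 406 CPM in Arg1-side cells and at 222, 225, 164, 43.1 and 118 CPM in Mmp12-side cells, higher in 5 of 5 libraries (log2 1.02, SE 0.21, edgeR adjusted p = 0.0129). This call was lost without sedentary replicate 3, exercise replicate 6 or exercise replicate 8. Mmp13 did not pass (log2 -0.48, adjusted p = 0.255). Hypoxia genes were higher in 6 of 23 (median 0.33), but DESeq2 called 1 of them, 0 to 4 passed on leaving out a library (0 without exercise replicate 8), and each of the 6 lost its call without some library. Lipid-handling genes were higher in 5 of 16 (median 0.49), and Apoe and Abca1 were the 2 that passed whichever library was left out. Matrix proteases were higher in 4 of 13 (median 0.63), of which Ctsl alone passed whichever library was left out. Interferon gamma-induced and cell division genes passed in 0 of 15 each. Markers of other cell types differed between the sides over the same 5 libraries. The 10 neutrophil markers summed to 55.5 to 250 CPM (median 83.4) in Arg1-side and 202 to 565 CPM (median 393) in Mmp12-side cells, lower on the Arg1 side in 4 of 5 libraries. Il1r2 is itself 1 of the 10 and made up 157 to 494 CPM of the Mmp12-side sums. The 12 tumour-like markers summed to 270 to 1361 against 209 to 487 CPM and the 8 fibroblast markers to 106 to 553 against 96.7 to 214 CPM, both higher on the Arg1 side in 5 of 5. The 8 monocyte markers summed to 598 to 1724 against 630 to 1290 CPM.

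The 11 dendritic markers summed to 209 to 327 CPM in Arg1-side and 320 to 404 CPM in Mmp12-side cells, lower on the Arg1 side in 5 of 5. These moved the same way as MHC class II. Clec9a, Ccr7, Cd209a, Zbtb46 and Flt3 of that list were low on both sides. Clec9a held 41 UMIs on the Mmp12 side against 1 on the Arg1 side, Ccr7 42 against 4 and Cd209a 43 against 7. Zbtb46 held 21 against 1 and Flt3 5 against 1, in the 925 and 254 cells of all 6 libraries. The highest level of these genes in any library was 24.5 CPM, that of Cd209a. Other genes of the list therefore made up most of the sums. Kmo, lower on the Arg1 side (log2 -2.10), is also on the dendritic list. The macrophage gene Adgre1 stood at 130 to 241 CPM in Arg1-side and 78.1 to 118 in Mmp12-side cells of the 6 libraries. Mertk stood at 37.6 to 174 against 22.8 to 46.9 CPM. The 15 macrophage markers summed to 11596 to 14957 against 8322 to 14060 CPM, higher on the Arg1 side in 3 of 5 libraries. The gate held no rule against dendritic cells. Cxcr2, Retnlg, Ly6g, Sfrp2, Lum and Siglech were at 0 in Arg1-side cells, and Retnlg, Ly6g and Siglech in Mmp12-side cells. The part of these markers in the differences between the sides was not tested.

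The 374 cells that held both transcripts are described without a test, on genes picked after their values were seen. In sedentary replicates 1, 2 and 3 and exercise replicates 5, 6 and 8, Mmp13 stood at 1278, 1797, 712, 387, 400 and 561 CPM in them, above both sides in each library (417, 451, 331, 116, 129 and 289 CPM on the higher of the sides). Gpnmb stood at 250, 428, 120, 220, 123 and 224 CPM, again above both sides in each library. Nos2 stood at 114, 146, 181, 240, 81.8 and 111 CPM, against 8.3 to 80.3 CPM over both sides. Cells with both transcripts had median depths of 5154.5 to 7428 UMIs against 4695 to 5790 on the Arg1 side and 5324.5 to 7640 on the Mmp12 side. These cells were chosen by Arg1 and Mmp12, and Mmp13 followed the UMIs of those genes (above). Arg1, Mmp12, Mmp13 and Hmox1 together summed to 3030 to 6985 CPM in them. The sums were 1003 to 1926 CPM on the Arg1 side and 1025 to 1848 on the Mmp12 side. The Arg1 side of sedentary replicate 1 held only 7 cells. The part of depth and of this choice in these levels was not tested.

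**Figure D4:**
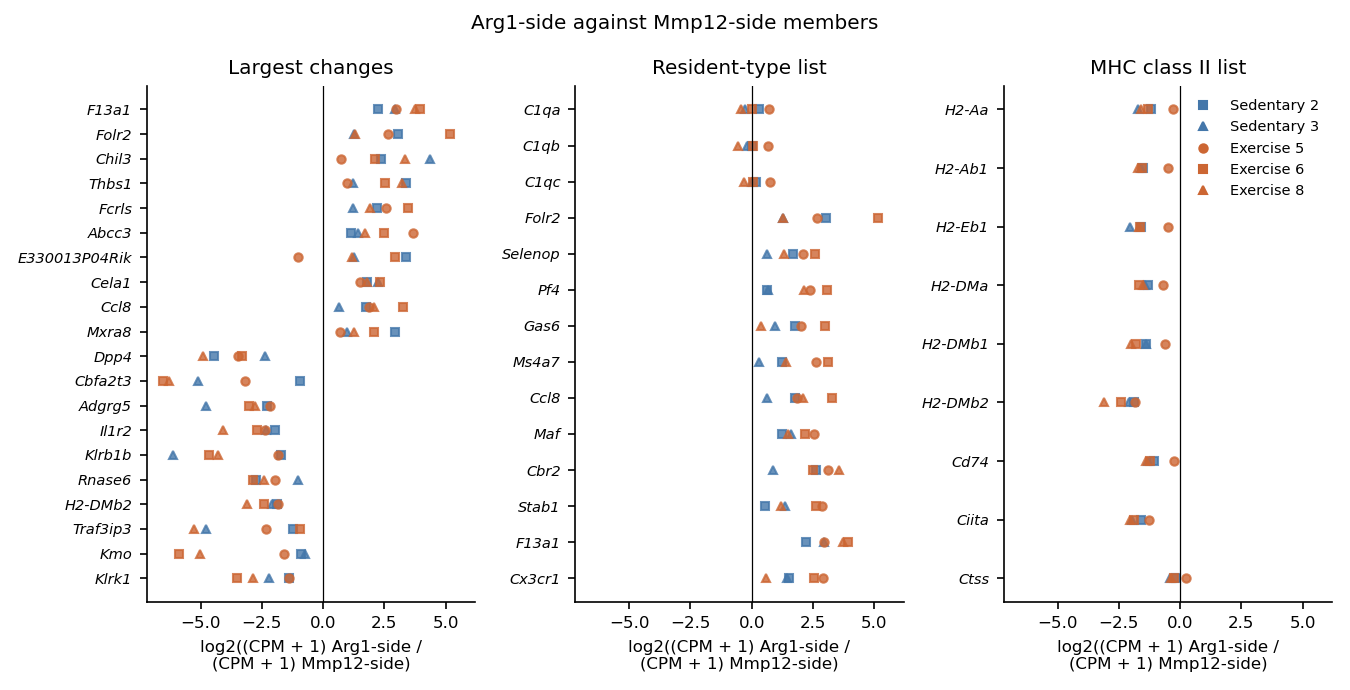
Log2 ratio of Arg1-side to Mmp12-side members in CPM after adding 1 (x axes) for the genes with the largest changes, genes of the resident-type list (1 is not shown) and the MHC class II list (y axes), with 1 point for each of 5 libraries. F13a1 lies right of 0 in all 5 libraries, and H2-DMb2 lies left of 0 in all 5.

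Between exercise and sedentary tumours, no gene passed the threshold in the members. In the strict gate 0 of 8824 genes (0%) passed edgeR's adjusted threshold, 359 had an unadjusted p under 0.05 (4.07%), and DESeq2 called 1 gene, Ccl12. In the gate without the 0.3% limit 0 of 9477 (0%) passed, with 411 at an unadjusted p under 0.05 and 0 by DESeq2. The groups did not overlap for 773 of 8824 genes (8.76%).

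Mmp13 had among the smallest unadjusted p-values. It stood at 574, 800 and 396 CPM in sedentary members and at 177, 157 and 335 CPM in exercise members. The groups did not overlap, with a log2 difference of -1.42 (SE 0.30, edgeR adjusted p = 1.00). It passed after thinning to 2000 UMIs (-1.46, adjusted p = 0.0255), with Ifit3 as the only other gene, and without exercise replicate 8 in the wider gate (-1.91, adjusted p = 0.0493). Hmox1 stood at 293, 381 and 358 CPM against 264, 76.0 and 267 CPM, also without overlap, and its log2 difference of -0.77 (SE 0.36) had an adjusted p of 1.00 by edgeR. Arg1 was at 188, 370 and 369 CPM against 543, 291 and 567 CPM, and Mmp12 at 1039, 1679 and 802 CPM against 1014, 815 and 883 CPM. Both overlapped between the groups, with log2 differences of 0.58 (SE 0.29) and -0.38 (SE 0.22).

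Ccl12, a monocyte attractant, stood at 551, 414 and 511 CPM in sedentary and at 276, 114 and 241 CPM in exercise members, without overlap (log2 -1.22, SE 0.27, edgeR adjusted p = 1.00; DESeq2 adjusted p = 0.0235). Zmynd15 (-0.80), Hebp1 (-0.79) and Ncoa4 (-0.75), a receptor that delivers ferritin for breakdown, were the other genes with the smallest unadjusted p-values and lower levels. Prkd3 (0.93), Cd2ap (0.58), the transcription factor gene Klf4 (0.70), Fkbp1b (0.79) and Crip1 (0.72) were those with higher levels. Each had an adjusted p of 1.00 by edgeR.

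The lists are described without a test. Of 16 inflammatory cytokine genes 12 had lower levels in exercise members (median -0.42 beside 0.004 for all genes), and 7 had an unadjusted p under 0.05. Named after their values were seen, Ccl4, a T cell and monocyte attractant, stood at 155, 141 and 238 CPM in sedentary and 79.2, 24.3 and 93.0 CPM in exercise members, and Tnf at 35, 31.5 and 25 against 22.5, 17.6 and 9.6 CPM. Hypoxia genes had lower levels in 24 of 24 (median -0.26), and 0 had an unadjusted p under 0.05. Without exercise replicate 6 that count was 14 of 24 and the median -0.006. Resident-type genes had lower levels in 15 of 15 (median -0.27, and -0.06 without exercise replicate 6), and MHC class II genes had higher levels in 9 of 11 (median 0.19). Lower levels were not particular to these lists. They were seen in 12 of 12 heat shock, 15 of 18 haem and iron and 13 of 17 matrix protease genes (medians -0.16, -0.18 and -0.28). Alternative activation genes were higher in 7 and lower in 7 of 14, and 6 had an unadjusted edgeR p under 0.05 (4.07% of all genes). The groups did not overlap for 3 of the 14, each higher in exercise, beside 8.76% of all genes in either direction.

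The difference between members and comparator was also compared between the groups. Of 10614 genes, 0 (0%) passed, 517 had an unadjusted p under 0.05 and DESeq2 called 1, the chemokine gene Ccl5. The genes with the smallest unadjusted p-values were Acod1 (1.48), Clec4e (1.19), Ccl5 (1.35), Tppp3 (1.68) and Clec4d (1.11) on the side of a larger value in exercise, and Dnase1l3 (-0.75), Ccl2 (-1.14), Ccl12 (-1.33), 1700017B05Rik and Tpx2 on the other. The smallest adjusted p by edgeR was 0.308.

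**Figure D5:**
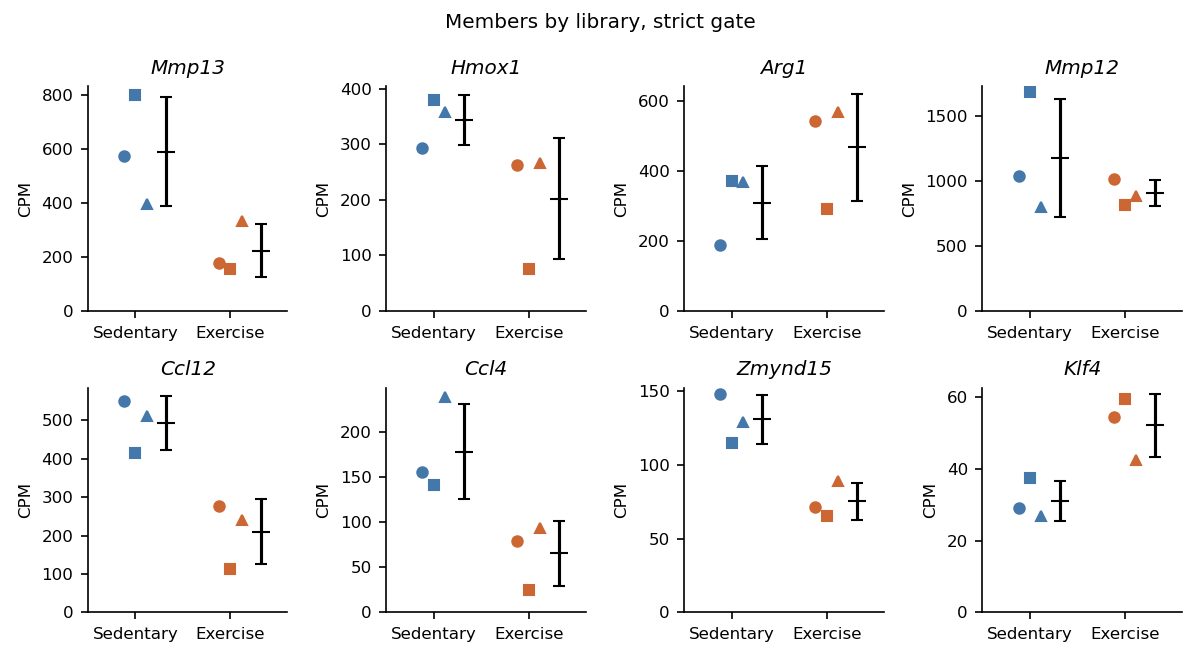
CPM in strict-gate members (y axes, from 0) for 8 genes, with 1 point per library, and bars at the mean ± SD of 3 libraries per group (x axes). Mmp13, Hmox1, Ccl12, Ccl4, Zmynd15 and Klf4 do not overlap between the groups, Arg1 and Mmp12 do, and none of the 8 passed edgeR's adjusted threshold.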

How the data were processed

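6 single-cell RNA libraries of melanoma tumours were analysed. UMI counts per gene and cell were deposited by the authors as unnormalised matrices. The submitters' processing notes name Cell Ranger 6.1.2 and mm10, while the matrix headers give software version 3.1.0, per the file headers. Libraries held 97426009 to 131778565 UMIs. The members and lists were chosen with earlier results of these data known.

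Barcodes needed 300 detected genes and 500 UMIs, and a mitochondrial share no higher than 20%. Raw counts were summed per library and cell state (1000000 to 2956215 UMIs for strict-gate members, 2891197 to 5216823 for the comparator, 45861 to 717246 for Arg1-side cells). They were tested with edgeR 4.0.16 (TMM, filterByExpr, glmQLFTest, Benjamini-Hochberg over all genes tested, two-sided) in R 4.3.3. Comparisons of 2 cell states within a library had the library as a block, because both states came from the same tumour. DESeq2 1.42.0, median-ratio scaling, no count filter, each library left out, Scrublet doublets left out, a 10% mitochondrial limit, a member threshold of 5 UMIs, a 0.1% strict gate and thinning were alternatives. The code was tested on simulated data. The depth limits precision, and CPM values of low genes carry counting error.

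Named genes were those past the threshold in both gates, changed in 6 of 6 libraries and with a mean of at least 20 CPM (the 15 highest and 10 lowest), the 10 highest and 10 lowest between the sides, the 5 smallest unadjusted p-values per direction between the groups, and 4 per list. Sequences came from RefSeq (GRCm38.p6), and gene positions from GENCODE M21. Mmp12, Mmp13, Bnip3 and Pgk1 were matched by symbol. Some genes that the naming rule or a list covers are not reported here by name.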

Additional observations from a re-analysis of the deposited data

How the results depend on the processing

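Other tools and scalings moved counts more than directions. Genes between members and comparator numbered 656 by DESeq2 in the strict gate and 1223 in the wider gate, and leaving out a library gave 730 to 1113 and 1349 to 1839. With no replicate block (libraries not paired) they numbered 378 and 914, and between Arg1-side and Mmp12-side members 236. For the latter DESeq2 gave 218, no filter on low counts 756, and leaving out a library 137 to 468. No paired analysis was possible because the exercise and sedentary groups share no replicate numbers. Between exercise and sedentary members, no filter on low counts gave 107 genes in the wider gate and 83 in the strict gate, DESeq2 gave 1 and thinning 2 in the strict gate, and leaving out a library gave 0 to 3 and 0 to 1. For the difference of differences these were 79 without the filter, 1 by DESeq2 and 0 to 3 without a library. The cause was not tested. Gzmc was the 1 gene called without exercise replicate 5, in all 3 of these comparisons. The exercise minus sedentary difference in member share changed sign: for kept cells it was 0.214 percentage points, -0.0572 with a member threshold of 5, and -0.792 to 1.59 without a library. For the myeloid gate it was 1.68, -0.0118 with that threshold and -0.338 to 4.65 without a library, and for the strict gate 1.93 and -0.119 to 4.997 without a library. Of single genes, these reversed between members and comparator within C1q cells: Acod1 (0.86), Gsr (0.87), Ly6i (0.83), Havcr2 (0.22), Ier2 (0.24), Ccna2 (-0.19), Mki67 (-0.29) and Tpx2 (-0.25). After thinning Ccna2 (-0.26), Mki67 (-0.046) and Tpx2 (-0.14) reversed.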
